A study of Mus musculus with 6 samples.

Results

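The 10 genes described here are Dnmt1, Dnmt3a, Dnmt3b, Dnmt3l, Uhrf1, Tet1, Tet2, Tet3, Dppa3 and Mbd1. They encode enzymes that write and erase DNA methylation, proteins that guide them, and Mbd1, a reader of methylated CpG. They were chosen by symbol, as every probe set that the platform annotation assigns to one of them alone. That gave 26 probe sets of the 34945 that carry 1 gene symbol, and 10 genes of 18193. Their mRNA was measured in full-size mouse oocytes of the germinal vesicle (GV) stage, whose nucleus is still intact and largely silent. The XY group was 3 arrays of oocytes from XY females of B6.Y(TIR), mice on the C57BL/6 background whose Y chromosome, of Tirano origin, leaves some XY animals with ovaries. The XX group was 3 arrays from XX littermates of that strain. Females of both groups were 25 to 29 days old and had received 5 IU of equine chorionic gonadotropin 45 to 47 hours before collection. Each array held 10 oocytes, freed of cumulus cells by pipetting. The labels call the arrays biological replicates and do not say how many females gave the oocytes of an array. XY and XX females differ in the Y and in the number of X chromosomes at once, so these 2 groups alone cannot tell the one from the other. XO females, which the protocols also name, were not analysed here.

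DNA methylation is laid down on a bare genome while the mouse oocyte grows. The methyltransferase Dnmt3a does this together with Dnmt3l, a relative with no catalytic activity of its own. Dnmt1, brought to newly replicated DNA by Uhrf1, copies the pattern at cell division. Tet enzymes oxidize methylated cytosine, and Tet3 is the form known for acting on the paternal genome in the zygote. Dppa3 (also called Stella) guards the maternal genome against that oxidation and keeps Uhrf1 out of the oocyte nucleus. Much of this machinery is stored in the oocyte as mRNA or protein for use after fertilization.

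The arrays were of oocytes by their markers: all 13 oocyte genes looked at were kept by the filter described next, and their summed intensity was 72392 to 96722 in XY and 93133 to 123730 in XX. Of these, 2 fell in XY, Bmp15 by 1.34 on the log2 scale (limma's adjusted p = 0.0101) and Mos by 0.85 (0.0272). Among markers of other ovarian cells, 13 granulosa and cumulus genes summed to 1329 to 1913 in XY and 1388 to 1814 in XX. The largest part of these sums was Nr5a2, at 552 to 810 in XY and 762 to 1110 in XX. Of the 13, 1 rose, Inha, by 1.58 (limma's adjusted p = 0.0475), with 154 to 270 in XY and 38.1 to 114 in XX. The log2 changes of Nr5a2, Kitl, Inhba and Amh were below 0 (-0.63 to -0.09). Those of the rest were above 0, from 0.06 in Has2 to 1.58 in Inha. The sums of 5 leukocyte genes were 373 to 452 in XY, above the 200 to 233 of XX, with 4 of the 5 kept and 2 that rose (Csf1r and Cd68), and those of 6 theca and stroma genes were 267 to 443 in XY, above the 140 to 156 of XX. Ptprc, the leukocyte gene that was not kept, read 13.7 to 23.3 in XY and 0.955 to 9.17 in XX. Its values were below the median of each array, and as deposited every XY array was above every XX array (log2 change 0.76). The 4 endothelial genes summed to 224 to 300 in XY and 212 to 377 in XX, and 3 red blood cell genes to 23 to 38 in XY and 23 to 64 in XX. Of 7 Y-linked genes measured, 5 rose in XY by limma's test. The 5' control of Actb, low where RNA or labelling is short at the 5' end, read 54.7 to 62.7 in XY, and 45.9, 184 and 188 in XX 1, XX 2 and XX 3, so that XX 1 lay with the XY arrays on this measure. The part that other cells had in the results was not tested. RNA of 10 oocytes was measured as a pool, so fewer oocytes that hold a transcript and less of it in each cannot be told apart.

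Values are given as deposited intensities, on a linear scale, or as log2 levels, log2(quantile-normalized intensity + 9). Quantile normalization gives all arrays the same distribution of intensities, so a change in total mRNA cannot be seen. Changes are the XY mean minus the XX mean of log2 levels, with limma's standard error (SE), and a gene is called where its p-value, adjusted by Benjamini-Hochberg over 12442 genes, is under 0.05. A probe set was kept if it reached the median of its array on at least 3 of 6 arrays, and the brightest kept probe set stood for its gene. In all, 18 of the 26 probe sets and 9 of the 10 genes were kept, each of the 9 through arrays of both groups. Tet2 was not.

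Of the 9 genes tested, 2 rose in XY oocytes, Dnmt3b and Mbd1, and 1 fell, Dnmt3a. Over all 12442 genes 7.86% rose, 5.34% fell and 13.2% changed in either direction, and with 9 genes the 3 calls are a description and not a result about the group. The XY and XX levels did not overlap for 4 of the 9 genes, against 38.8% of all genes. The median change of the 9 was -0.05, and that of all genes was 0.07. The fit was repeated under 19 alternatives, each of which changed 1 choice of the processing: 6 left out an array, and 1 took the log2 ratio of the 3' to the 5' Actb control as a covariate (the Actb covariate). The other 6 genes, Dnmt1, Dnmt3l, Uhrf1, Tet1, Tet3 and Dppa3, did not pass. At the level of genes, the call for Dnmt3b held in all 19 alternatives, and those for Mbd1 and Dnmt3a ended in 11 of 19 each. One of the 19 only loosened the threshold to 0.1, where a call made at 0.05 could not end.

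**Figure D1:**
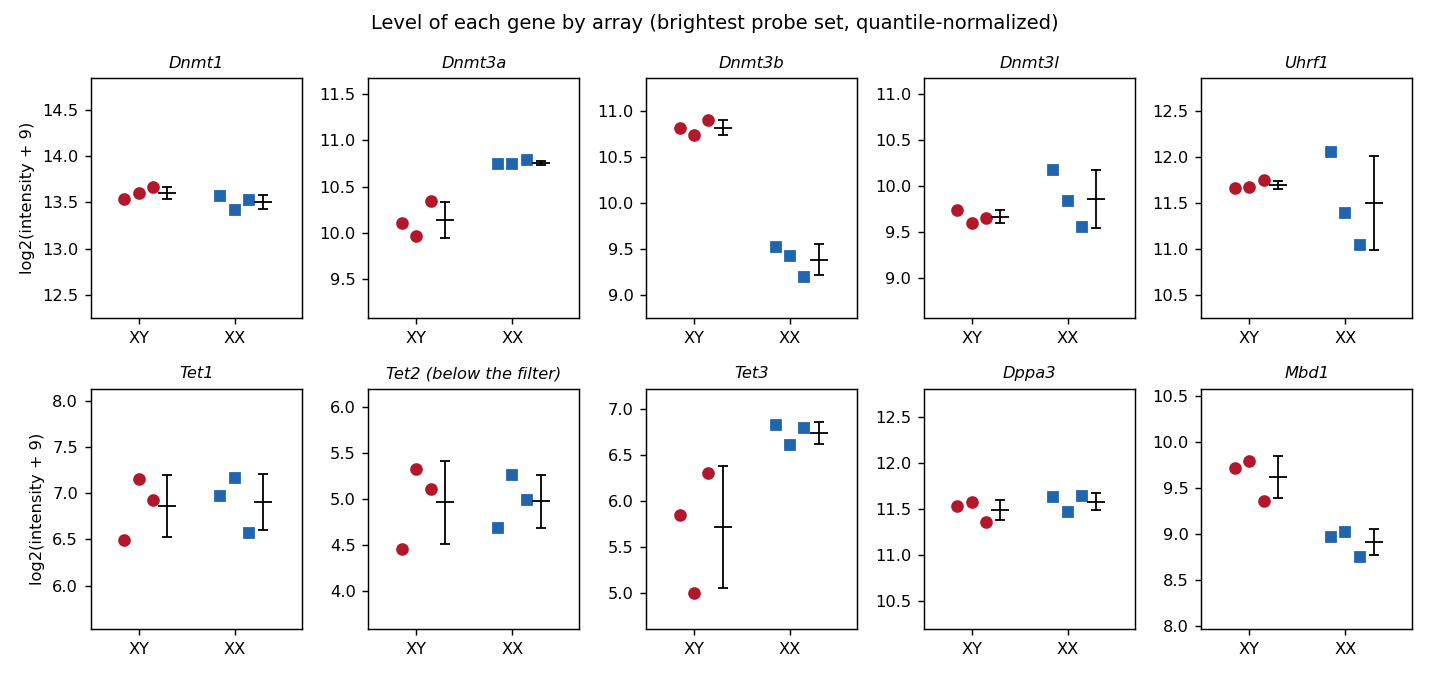
Level of each of the 10 genes on each array, as log2(quantile-normalized intensity + 9) of its brightest probe set, with XY as red circles, XX as blue squares, and the mean and SD (n = 3) as black bars. Each panel has its own axis of equal span, since levels cannot be compared between probe sets. The 3 XY arrays lie above the 3 XX arrays for Dnmt3b and Mbd1 and below them for Dnmt3a and Tet3.

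Of the methyltransferases that add new methyl groups, Dnmt3b rose and Dnmt3a fell. Dnmt3b, on chromosome 2 (153649411 to 153687730, GRCm38.p6), encodes the family member that methylates the embryonic genome and is not required for methylation of the oocyte. Its deposited intensity was 1907, 1286 and 1518 in XY 1, XY 2 and XY 3, against 596, 795 and 795 in XX 1, XX 2 and XX 3. Every XY array was above every XX array, before and after normalization. The mean was 1571 ± 314 in XY and 729 ± 115 in XX (SD, n = 3 each). On the log2 scale Dnmt3b rose by 1.43 ± 0.15 (SE, limma's adjusted p = 0.00471), a 2.70-fold change with a 95% interval of 1.07 to 1.79 in log2. It ranked 71 among the 12442 genes by p. XX 1, which shared the low 5' Actb signal of the XY arrays, had a log2 level of 9.53 beside 9.43 and 9.20 in XX 2 and XX 3, and 10.74 to 10.90 in XY. This is 1 array, and the part that the 5' signal had in the change was not tested.

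Over those alternatives the change of Dnmt3b ran from 0.93 to 1.502 and its adjusted p from 0.000418 to 0.0461. The smallest changes came with other scalings of the arrays, 0.93 with median scaling and 1.09 with the deposited values. The median of all genes was -0.27 in the first of these and -0.12 in the second. Relative to that median Dnmt3b changed by 1.36 in the main setting and by 1.20 to 1.23 in the other scalings. The second probe set of Dnmt3b, 1418351_a_at, read 582, 257 and 443 in XY and 121, 263 and 340 in XX. Its deposited values overlapped and its normalized levels did not. Its change was 1.12 ± 0.30 (limma, adjusted p = 0.114 over all 45037 probe sets and 0.0483 over the 22997 kept). Without the filter, 1 of the 26 probe sets rose, 1449052_a_at of Dnmt3b, and 0 fell, against 0.719% and 0.651% of all probe sets. At an unadjusted p under 0.05, 3 of the 26 were higher and 5 lower, against 9.15% and 9.41% of all probe sets. Over all 45037 probe sets the call for 1449052_a_at (adjusted p = 0.0294) ended without XY 1 (0.103), XY 2 (0.119), XY 3 (0.129), XX 2 (0.108) or XX 3 (0.108), and also with the deposited values (0.111), median scaling (0.0900), a pseudocount of 1 (0.0842) and the Actb ratio as a covariate (0.219).

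Dnmt3a (chromosome 12, 3801559 to 3914443) is the main methyltransferase of the growing oocyte. Its brightest probe set, 1423066_at, read 1152, 745 and 1026 in XY, against 1416, 2016 and 2416 in XX. The lowest XX array lay above the highest XY array. The log2 level was 10.14 ± 0.19 in XY and 10.76 ± 0.02 in XX (SD, n = 3 each), and Dnmt3a fell by 0.62 ± 0.16 (SE, limma's adjusted p = 0.0423). The call was near the threshold. It ended with the deposited values (adjusted p = 0.0584), a pseudocount of 1 (0.0503), no filter (0.0859), the mean of its probe sets (0.0748) and the Actb ratio as a covariate (0.152). It also ended without XY 1 (0.120), XY 2 (0.146), XY 3 (0.0701), XX 2 (0.106) or XX 3 (0.113), and held without XX 1 (0.0385). The change stayed below 0 in all 19 alternatives, from -1.15 to -0.42.

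The 5 probe sets of Dnmt3a, all built on the same transcript accession in the annotation, did not move alike. Those other than 1423065_at had changes of -0.88, -0.62, -0.38 and -0.37. The change of 1423065_at was 0.14 ± 0.18, with levels that overlapped, and turned to -0.33 with median scaling and -0.17 with the deposited values. The largest of the changes, in 1423064_at, came from readings of 387, 294 and 245 in XY, against 497, 713 and 944 in XX (change -0.88 ± 0.19, limma's adjusted p = 0.0761 over all probe sets and 0.0248 over those kept). Where each probe set lies along the transcript is not given in the files used here.

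Because Dnmt3b and Dnmt3a were read on the same arrays, their difference within an array does not depend on any factor by which whole arrays are scaled. The log2 of the deposited Dnmt3b value minus that of Dnmt3a was 0.73, 0.79 and 0.57 in XY 1, XY 2 and XY 3, against -1.25, -1.34 and -1.60 in XX 1, XX 2 and XX 3. The group means were 2.09 apart, with SDs of 0.11 in XY and 0.18 in XX. A wide gap follows from the choice of a gene that rose and one that fell. It rests on 1 probe set per gene, which changed by 1.09 (Dnmt3b) and -0.98 (Dnmt3a) with the deposited values. Other probe sets changed by 0.84 in Dnmt3b and by -1.17 to -0.17 in Dnmt3a. The difference of Dnmt3b from Dnmt3l shifted by 1.64, from Uhrf1 by 1.29 and from Dnmt1 by 1.23. These pairs were chosen after the values were seen, so no test is given, and the absolute size of such a difference says nothing of which transcript is more abundant.

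Dnmt3l (chromosome 10, 78042287 to 78063622), the cofactor of Dnmt3a, had 889, 589 and 650 in XY, against 950, 1068 and 1029 in XX. As deposited, all XY arrays were lower, and after quantile normalization the groups overlapped. XX 1 had a log2 level of 10.18, beside 9.84 and 9.55 in XX 2 and XX 3 and 9.60 to 9.74 in XY. The change of Dnmt3l was -0.19 ± 0.19 (limma's adjusted p = 0.515). It stayed below 0 in all 19 alternatives, from -0.70 to -0.03, without a call in any.

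RefSeq promoter windows of assembly GRCm38.p6, 250 bases before to 50 after a start site, were matched by symbol for 8 of the 10 genes, 15 windows in all. The windows are shown because CpG, the dinucleotide these enzymes methylate, is dense in some of them and nearly lacking in others. The windows held 2 to 57 CpGs with a median of 18, while all 32851 windows had a median of 7 and quartiles of 3 and 20. The GC box GGGCGG, on either strand, was in 4 copies in the only Dnmt3b window and in 6, 6 and 2 in the 3 windows of Dnmt3a, which had 46, 47 and 18 CpGs, and was in at least 1 copy in 35.7% of all windows. The first 2 windows of Dnmt3a overlap (3806730 to 3807029 and 3806910 to 3807209), so part of their letters was counted in both. Genes that were not called held the GC box too. It was in up to 3 copies in a window of Uhrf1, 2 in Dnmt1, Dnmt3l and Tet3, and 1 in Tet1 and Tet2. The letters TTTNGCGC, an E2F-like motif searched on both strands, occurred in 1.38% of all windows and in 1 window each of Dnmt1 and Uhrf1. TATAAA, in 13.6% of all windows, was in none of the 15. Matches of this kind are descriptions of sequence only. Mbd1, which also rose, had no window matched by symbol. The window of Dnmt3b (chr2:153649199-153649498, + strand, 30 CpGs) and the most upstream window of Dnmt3a (chr12:3806730-3807029, + strand, 46 CpGs) are printed 5' to 3' with every CpG in capitals. They are start regions of 1 gene that rose and of the gene that fell.
Dnmt3b: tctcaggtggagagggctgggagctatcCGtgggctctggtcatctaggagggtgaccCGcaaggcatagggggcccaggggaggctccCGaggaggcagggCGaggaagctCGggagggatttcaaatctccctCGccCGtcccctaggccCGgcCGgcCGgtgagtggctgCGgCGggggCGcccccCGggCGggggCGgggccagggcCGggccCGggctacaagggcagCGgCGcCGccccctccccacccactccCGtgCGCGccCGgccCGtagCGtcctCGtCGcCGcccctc
Dnmt3a: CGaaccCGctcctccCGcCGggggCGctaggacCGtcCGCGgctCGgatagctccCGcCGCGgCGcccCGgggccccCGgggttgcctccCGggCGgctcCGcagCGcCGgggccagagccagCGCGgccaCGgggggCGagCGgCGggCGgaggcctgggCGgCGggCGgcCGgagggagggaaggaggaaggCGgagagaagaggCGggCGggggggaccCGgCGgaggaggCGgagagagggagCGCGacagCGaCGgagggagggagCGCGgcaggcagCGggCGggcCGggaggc

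Among the maintenance genes, Dnmt1 (chromosome 9, 20907206 to 20959888) did not pass. The brightest of its 3 probe sets read 12738, 10156 and 11771 in XY, against 11871, 12255 and 13549 in XX, and the groups overlapped. The change was 0.10 ± 0.14 (limma's adjusted p = 0.650), with a 95% interval of -0.22 to 0.42. That probe set lay at percentiles 99.75 to 99.9 of the arrays, near the top of the range, and saturation was not tested. The other 2 probe sets changed by -0.05 and -0.27. For the last, 1422946_a_at, the groups overlapped as deposited and did not after normalization: it read 5987, 4305 and 4854 in XY, against 5886, 8182 and 8295 in XX, with log2 levels of 12.44 to 12.51 in XY and 12.63 to 12.84 in XX (adjusted p = 0.464 over all probe sets). Dnmt1 had a change below 0 with the deposited values (-0.12), median scaling (-0.29) and the mean of probe sets (-0.07).

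Mouse Dnmt1 is transcribed in oocytes from a start site upstream of the one used in somatic cells, which gives an oocyte form of the protein. The table lists 3 start windows for the gene without saying which serves oocytes, and an array read near the 3' end cannot tell the transcripts apart. The window farthest upstream (chr9:20959839-20960138, - strand) had 2 CpGs, fewer than most windows (percentile 18.7), while the one farthest downstream (chr9:20952574-20952873, - strand) had 33 (percentile 91.9). Both are printed 5' to 3' with CpGs in capitals to show that contrast within 1 gene.
Dnmt1 upstream: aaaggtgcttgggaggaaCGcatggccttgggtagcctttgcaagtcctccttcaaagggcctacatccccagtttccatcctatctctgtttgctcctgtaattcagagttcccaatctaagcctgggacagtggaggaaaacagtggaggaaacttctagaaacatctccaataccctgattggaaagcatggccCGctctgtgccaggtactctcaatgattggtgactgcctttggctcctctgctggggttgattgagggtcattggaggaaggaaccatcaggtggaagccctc
Dnmt1 downstream: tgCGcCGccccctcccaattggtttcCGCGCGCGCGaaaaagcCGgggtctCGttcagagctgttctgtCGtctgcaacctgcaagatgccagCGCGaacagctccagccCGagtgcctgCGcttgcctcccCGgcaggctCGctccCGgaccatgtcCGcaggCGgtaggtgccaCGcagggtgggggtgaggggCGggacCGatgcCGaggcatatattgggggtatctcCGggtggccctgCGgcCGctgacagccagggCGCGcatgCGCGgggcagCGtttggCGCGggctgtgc

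Uhrf1 (chromosome 17, 56303337 to 56323486), the reader of half-methylated DNA that recruits Dnmt1, had 2 probe sets that went apart. The brighter, 1415810_at, stood for the gene and read 3396, 2468 and 2751 in XY, against 3746, 3166 and 2893 in XX. Its groups overlapped after normalization, the XY arrays spread by an SD of 0.04 and the XX arrays by 0.51, and the change was 0.20 ± 0.26 (limma's adjusted p = 0.623). The other, 1415811_at, read 644, 256 and 359 in XY, against 977, 1226 and 1804 in XX, so every XY array was lower. That probe set had a change of -1.38 ± 0.26, with an adjusted p of 0.0568 over all probe sets and 0.0194 over those kept. XX 1, with its low 5' Actb signal, had a log2 level of 10.22 on it, beside 10.03 and 10.34 in XX 2 and XX 3 and 8.40 to 9.27 in XY. On 1415810_at XX 1 had a level of 12.05, beside 11.39 and 11.05 in XX 2 and XX 3 and 11.66 to 11.74 in XY. The part that the 5' signal had in these levels was not tested. With the Actb ratio as a covariate the change of 1415811_at was -1.58, with limma's adjusted p of 0.232.

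Since the 2 probe sets of Uhrf1 share an accession but not a direction, no direction can be given for the gene. The value for the gene turned below 0 with the deposited values (-0.19), median scaling (-0.35), the mean of probe sets (-0.59, adjusted p = 0.0781), the Actb covariate (-0.29) and without XX 3 (-0.02). Fitted one by one over the 22997 probe sets kept, 2 probe sets of the 18 rose, both of Dnmt3b, and 2 fell, 1423064_at of Dnmt3a and 1415811_at of Uhrf1, against 5.08% and 5.41% of all kept. That fit was added after the data were seen. Over the 18, 12 had changes below 0 and 6 above, and the groups did not overlap for 3 that were higher in XY and 6 that were lower, against 18.5% and 18.1% of all probe sets kept.

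**Figure D2:**
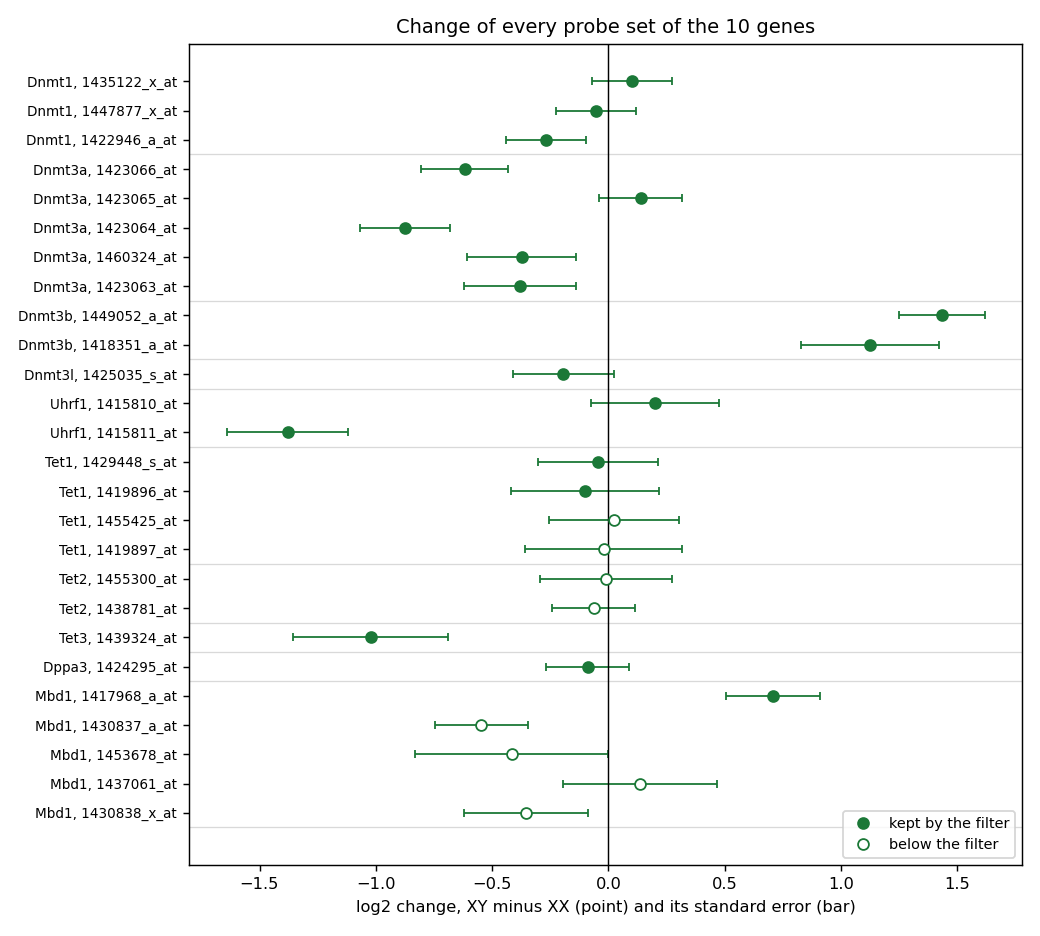
Change in log2 level, XY minus XX, of each of the 26 probe sets, with its standard error from the fit over all 45037 probe sets; filled points were kept by the filter and open ones were not. Both probe sets of Dnmt3b lie at the right, at 1.43 and 1.12, while the 2 of Uhrf1 stand at 0.20 and -1.38.

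The erasers were dim or did not pass. Tet3 (chromosome 6, 83362373 to 83457208), the oocyte form, had 1 probe set, which read 53.1, 25.3 and 66.9 in XY, against 86.0, 94.95 and 121 in XX. Every XY array was lower, and XY 2 was below the median of its array. The change was -1.02 ± 0.31 (limma's adjusted p = 0.0718), with a 95% interval of -1.76 to -0.28. The XY levels were spread by an SD of 0.66 and the XX levels by 0.12. Tet3 passed with median scaling (-1.14, adjusted p = 0.0254), a pseudocount of 32 (-0.76, 0.0452) and a trended variance (0.0476). Without XY 2 its change was -0.67, and it was below 0 in all 18 alternatives that tested it. It was not tested under the 70th percentile filter.

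Tet1 (chromosome 10, 62804570 to 62887469), best known from embryonic stem cells and germ cells, read 88.6, 115 and 104 in XY, against 96.3, 150 and 99.8 in XX on its brightest probe set. The groups overlapped, with a change of -0.05 ± 0.23 (limma's adjusted p = 0.908). Its other 3 probe sets read 5.55 to 32.4 in XY and 1.22 to 40.4 in XX, with changes of -0.10, 0.02 and -0.02. The direction of Tet1 turned with trimmed mean scaling (0.15), the Actb covariate (0.04) and without XY 1 (0.14) or XX 2 (0.09). Tet2 (chromosome 3, 133463677 to 133545136), prominent in blood cells, read 14.2, 33.2 and 26.0 in XY, against 14.4, 28.9 and 22.3 in XX on the brighter of 2 probe sets, and 0.885 to 2.40 in XY against 0.927 to 2.18 in XX on the other. Neither reached the filter, and their changes over all probe sets were -0.01 ± 0.28 and -0.06 ± 0.18.

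Dppa3 (chromosome 6, 122626424 to 122630271), which shields the maternal genome in the zygote, read 3086, 2288 and 2106 in XY, against 2710, 3343 and 4296 in XX. The groups overlapped as deposited and as normalized. Its log2 level was 11.49 ± 0.11 in XY and 11.58 ± 0.09 in XX (SD, n = 3 each), and its change of -0.09 ± 0.15 had an adjusted p of 0.700 by limma and a 95% interval of -0.43 to 0.25. The change was below 0 in all 19 alternatives, reaching -0.62, and passed in none. The gene table lists an X-linked pseudogene, Dppa3-ps. Whether the probe set also reads it is not known from the files, so the value of Dppa3 is uncertain to that extent.

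Mbd1 (chromosome 18, 74267605 to 74282737) encodes a reader, a repressor that binds methylated CpG. Its probe set 1417968_a_at read 874, 667 and 528 in XY, against 397, 598 and 575 in XX. As deposited the groups overlapped, and after quantile normalization they did not, at 9.36 to 9.79 in XY and 8.75 to 9.02 in XX. Mbd1 rose by 0.71 ± 0.17 (SE, limma's adjusted p = 0.0411). That call depended on the scaling: the change was 0.22 with median scaling (adjusted p = 0.564) and 0.38 with the deposited values (0.457), or 0.50 in both relative to the median of all genes. It also ended with a pseudocount of 1 (0.05001), no filter (0.0812) or the Actb covariate (0.178), and without XY 1 (0.120), XY 2 (0.136), XY 3 (0.0584), XX 2 (0.0891) or XX 3 (0.120). The other 4 probe sets of Mbd1 were below the median on all arrays, at 0.414 to 16.9 in XY and 0.944 to 22.3 in XX. Their changes were -0.55, -0.42, -0.36 and 0.14, and for the first the log2 levels did not overlap (adjusted p = 0.212 over all probe sets).

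**Figure D3:**
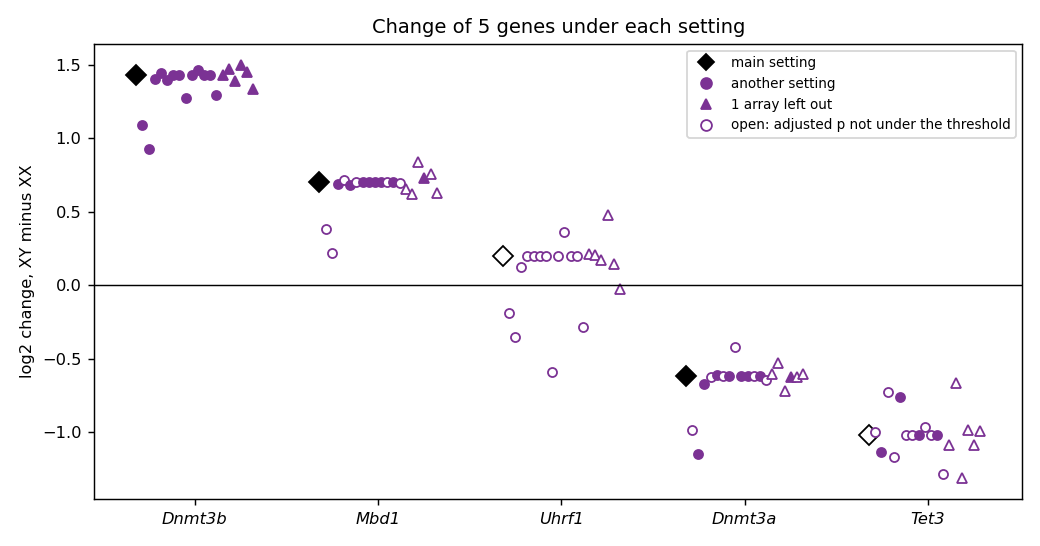
Change in log2 level, XY minus XX, of 5 genes in the main setting (black diamond), under other settings of the processing (circles) and with 1 array left out (triangles). Filled symbols passed the threshold of that setting. Dnmt3b is filled throughout, between 0.93 and 1.502, Mbd1 and Dnmt3a are filled in part and keep their side of 0, and Uhrf1 lies on both sides of it.

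For each of the 3 called genes, the other genes of the 12441 whose levels ran most alike over the 6 arrays were found by the root mean squared difference of levels centred on each gene's mean. Nearest to Dnmt3b were X-linked Hmgn5, which encodes a nucleosome-binding protein, at 0.08 and with a change of 1.56, and Mylip, a ubiquitin ligase gene, at 0.08 and with 1.39. Nearest to Dnmt3a were Cpa1, a carboxypeptidase A gene, at 0.04 (change -0.68) and Cpt2, a gene of mitochondrial fatty acid transport, at 0.05 (-0.61). Nearest to Mbd1 were Gpank1 at 0.05 (0.79) and Gm20616 at 0.06 (0.72). With 6 arrays in 2 groups, such likeness mostly restates a similar change.

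Outside the 10, 7 lists of other genes of DNA methylation held 77 genes, of which 68 had a probe set of their own and 62 were tested. Of these 62, 2 rose and 6 fell, against 7.86% and 5.34% of all genes. The 58 autosomal genes among them held 2 rises and 3 of the falls. The median change of the 62 was -0.00, beside 0.07 for all genes. At an unadjusted p under 0.05, 8 were higher and 12 lower, against 18.9% and 13.3% of all genes. With median scaling their median was -0.47, and without any scaling -0.32. Of the 6 that fell, 3 are X-linked, out of 4 X-linked genes tested in these lists. The fourth, Ogt, was not called from its brightest probe set, while 2 of its other 3 passed over all probe sets. Across the array 95 of 375 X-linked genes fell (25.3%), beside 5.34% of all genes. None of the 10 genes is X-linked. Each list below tested 5 to 13 genes, so its calls are a description and not a result about the list.

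Of 8 readers of methylated CpG tested, 1 passed, with a fall (median 0.16), against falls in 5.34% of all genes. X-linked Zbtb33, which encodes the methyl-CpG-binding repressor Kaiso, had log2 levels of 8.67, 8.86 and 8.68 in XY, against 9.89, 10.55 and 10.02 in XX. Zbtb33 fell by 1.42 ± 0.20 (SE, limma's adjusted p = 0.00922), and its call ended with the Actb covariate only (0.0696). Uhrf2, a relative of Uhrf1, had a change of 0.55 (adjusted p = 0.126), and Zbtb38 of 0.41 (0.131).

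Of 11 genes listed as partners of maintenance methylation, 2 passed, both with a fall (median 0.13), against falls in 5.34% of all genes. The list also holds ubiquitin ligase genes, Cul4b among them. Cdca7, which activates the remodeller Hells, fell by 1.42 ± 0.27 (limma's adjusted p = 0.0186), to levels of 5.26 to 6.004 in XY, against 6.68 to 7.41 in XX. The call for Cdca7 ended without XY 1 (0.0562), XY 2 (0.0576), XX 2 (0.0687) or XX 3 (0.0661), and with the Actb covariate (0.145). Hells itself had a change of -0.39 (adjusted p = 0.189). X-linked Cul4b, a scaffold of the ubiquitin ligases that act on Tet proteins, fell by 0.94 ± 0.17 (0.0161), and its second probe set had a change of -1.35. The call for Cul4b ended without XY 1 (0.0618), XY 3 (0.0613), XX 2 (0.0540) or XX 3 (0.0510), and with the Actb covariate (0.103).

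Of 13 genes for the chromatin marks that guide DNA methylation, 2 passed, both with a fall (median -0.27), against falls in 5.34% of all genes. X-linked Atrx, a chromatin remodeller gene, fell by 0.89 ± 0.16 (limma's adjusted p = 0.0171), with all 6 kept probe sets between -1.90 and -0.69. Its partner, the histone chaperone gene Daxx, fell by 0.63 ± 0.16 (adjusted p = 0.0476). Daxx passed in 8 of 19 alternatives and lost its call without any 1 of the 6 arrays (adjusted p from 0.0530 without XX 1 to 0.154 without XY 2), and Atrx without each array but XX 1 (0.0537 to 0.0686) and with the Actb covariate (0.111). The histone methyltransferase gene Nsd3 had a change of 0.57 (adjusted p = 0.0823), and its other kept probe set one of -1.33 (0.222 over all probe sets).

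Neither imprint protection, with 8 genes (median -0.04), nor base excision, with 10 (median 0.18), had a gene that passed by limma. At an unadjusted p under 0.05, the count was 2 in each list, 1 higher and 1 lower, against 18.9% and 13.3% of all genes. Arid4a had -0.67 (adjusted p = 0.0858), while its other 2 kept probe sets were at 0.54 and 0.20. Trim28, the corepressor that binds imprints through Zfp57, had 0.41 (0.131), with Ctcf at -0.26 (0.288). In base excision, Parp1 had 0.54 (0.0603), the DNA ligase gene Lig3 -0.56 (0.102) and Xrcc1 0.41 (0.214). The other kept probe sets were at 0.71 and -0.12 for Parp1, and ranged from -0.28 to 0.12 for Lig3.

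The methyl donor cycle supplies S-adenosylmethionine. Of its 7 tested genes, 1 rose and 1 fell (median 0.18), against 7.86% and 5.34% of all genes. Gnmt, the glycine methyltransferase that consumes S-adenosylmethionine and is abundant in liver, had levels of 8.29, 7.73 and 8.28 in XY, against 6.48, 6.89 and 6.57 in XX. Gnmt rose by 1.46 ± 0.21 (SE, limma's adjusted p = 0.00935), with a call in every alternative but the Actb covariate (0.0668). Shmt1, a serine hydroxymethyltransferase gene, fell by 0.56 ± 0.14 (0.0438), and passed in 4 of 18 alternatives. Its call ended without XY 1 (0.108), XY 2 (0.149), XY 3 (0.122), XX 2 (0.0926) or XX 3 (0.119). Ahcy, which clears the product of methylation, had a change of 0.67 (0.0745).

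Among 5 partners of the Tet enzymes and suppliers of their cofactor, 1 passed, with a rise (median -0.22), against rises in 7.86% of all genes. Idh1, the cytosolic enzyme that makes the Tet cosubstrate 2-oxoglutarate, rose by 1.05 ± 0.19 (limma's adjusted p = 0.0167), to levels of 9.77 to 10.27 in XY, against 8.82 to 9.20 in XX. Its second probe set was at -0.20, and the call ended with the mean of probe sets (0.42, adjusted p = 0.122), the deposited values (0.71, 0.167) or median scaling (0.55, 0.164). It also ended without XY 2 (0.0619), XY 3 (0.0613) or XX 3 (0.0597), and with the Actb covariate (0.0581). X-linked Ogt, the partner of Tet proteins that modifies them with a sugar, had -0.84 (0.162) on its brightest probe set, where the groups overlapped. On the other 3 they did not, with changes of -2.39 (adjusted p = 0.0272 over all probe sets), -2.36 (0.0188) and -1.15 (0.0573). Cxxc5 had -0.59 (0.188).

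**Figure D4:**
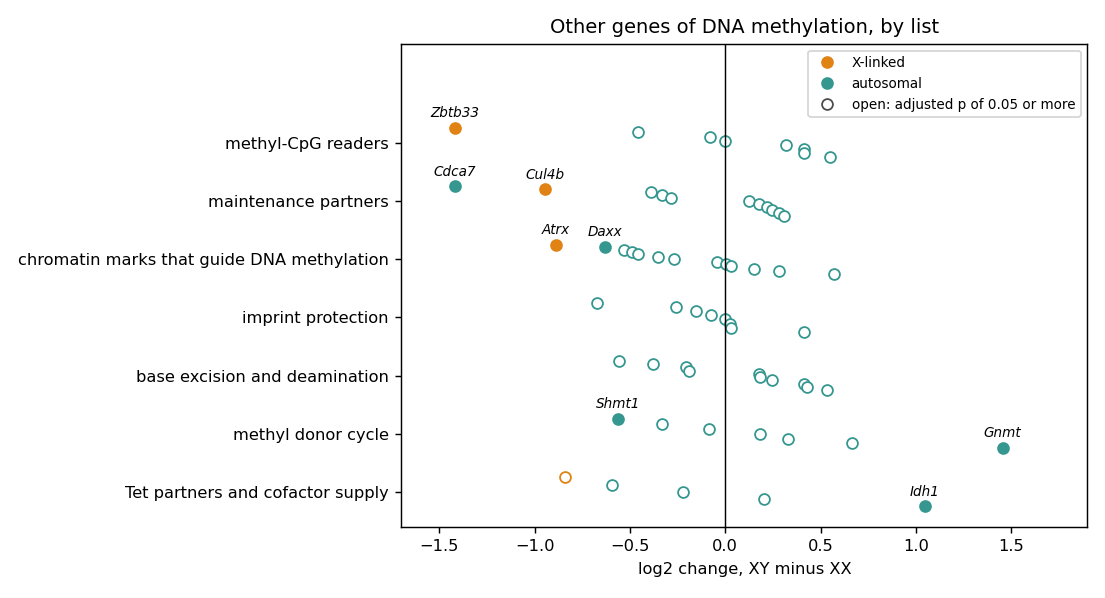
Change in log2 level, XY minus XX, of the 62 other genes tested, by list; filled and named points passed limma's adjusted p of 0.05, orange marks X-linked and green autosomal genes. The rises are Gnmt at 1.46 and Idh1 at 1.05, and the falls reach -1.42 in Zbtb33 and Cdca7.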

How the data were processed

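Total RNA of oocytes was measured on 6 Affymetrix 3' expression arrays, 3 XY and 3 XX, grouped by the genotype in the labels. The values used are the deposited intensities, on a linear scale, 1 per probe set and array. MAS5 is the only tool the submitters' processing notes name, without a version or settings. The deposited arrays are not on 1 scale: their trimmed means, without the top and bottom 2 percent, ran from 194 to 332 and their medians from 24.5 to 31.4. No detection calls were used.

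The 64 control probe sets were left out, which left 45037. Of these, 34945 carry 1 symbol, 932 several and 9160 none in the platform annotation, and 34741 matched RefSeq's GRCm38.p6 gene table by gene ID. Intensities were quantile-normalized and log2-transformed after adding 9, the 25th percentile of all deposited values. A change on this scale understates that of dim probe sets. The filter kept 22997 probe sets, 20268 of them with 1 symbol, for 12442 genes, of which 4937 had several and were taken by the brightest. The fits of XY against XX used limma 3.58.1 (lmFit and eBayes) in R 4.3.3, with Benjamini-Hochberg adjustment. The fit was tested on simulated data. The p-values measure the spread between these 6 samples, and the number of arrays limits the precision.

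The alternatives were the deposited values, median and trimmed mean scaling, pseudocounts of 1 and 32, no filter and a 70th percentile filter, the mean of a gene's probe sets, a trended variance, array weights, a replicate block, a threshold of 0.1, the log2 ratio of the 3' and 5' Actb controls as a covariate, and leaving out each array. A fit of every kept probe set was added after the data were seen. The genes, the lists and the tests were chosen with earlier results of these data known. Genes named are all 10, up to 3 of each related list by smallest p with any others that passed, and the 2 nearest patterns of each called gene. Same-numbered arrays correlated at -0.10, 0.001 and -0.04 in their deviations from the group means. That is no strong shared deviation, but with 3 arrays per group it cannot tell whether they were handled as pairs. The main fit did not pair them.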

Additional observations from a re-analysis of the deposited data

How the results depend on the processing

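Values are given with XY higher first and XY lower after it. Over all genes, 978 rose and 665 fell; the counts were 482 and 1622 with median scaling, 472 higher with the deposited values, 566 and 347 with no filter, 1961 and 1303 with array weights, 1777 and 1242 at an adjusted p of 0.1, 159 and 77 with the Actb covariate, and 1005 lower with a trended variance. Leaving out 1 array gave 305 to 1982 higher and 182 to 1266 lower, the highest of each without XX 1. Of the 9 methylation genes tested, 2 rose and 1 fell. That became 1 and 0 with the deposited values, a pseudocount of 1, no filter or the Actb covariate, 1 and 2 with median scaling, 0 lower with the mean of probe sets, and 2 lower with a pseudocount of 32, a trended variance or an adjusted p of 0.1. Leaving out 1 array gave 1 to 2 higher and 0 to 1 lower. Of the 26 probe sets without a filter, 1 rose and 0 fell. This was 0 higher with the deposited values, a pseudocount of 1 or the Actb covariate, 0 and 1 with median scaling, 3 and 3 with a trended variance, 3 lower with a pseudocount of 32, 1 lower with array weights, 2 lower at an adjusted p of 0.1, and 2 and 2 in the fit of kept probe sets, added after the data were seen. Leaving out 1 array gave 0 to 1 higher and 0 lower. Of the 62 related genes, 2 rose and 6 fell. This was 1 higher with the deposited values or the mean of probe sets, 1 and 12 with median scaling, 4 higher with a pseudocount of 32, 5 higher with the 70th percentile filter, a trended variance or an adjusted p of 0.1, 9 and 10 with array weights, and 0 and 0 with the Actb covariate. Leaving out 1 array gave 1 to 8 higher and 1 to 11 lower. The causes were not tested.

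Directions turned for Dnmt1 (-0.29 with median scaling, -0.12 with the deposited values, -0.073 with the mean of probe sets), for Uhrf1 (-0.35, -0.19 and -0.59 in the same order, and -0.29 with the Actb covariate) and for Tet1 (0.15 with trimmed mean scaling and 0.044 with the Actb covariate). With 1 array left out, Uhrf1 ran from -0.024 without XX 3 to 0.48 without XX 1, and Tet1 from -0.21 without XX 3 to 0.14 without XY 1. Tet1 was also above 0 without XX 2 (0.09). None of these 3 passed in any alternative.

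Whether same-numbered arrays were handled as pairs is not known from the labels, and the main fit did not pair them. With the replicate number as a block, 424 genes were higher and 255 lower, 1 methylation gene was higher and 0 lower, 0 of the 26 probe sets were higher (1449052_a_at of Dnmt3b had an adjusted p of 0.145), and 3 related genes were lower. Under the block Dnmt3b kept its call (adjusted p = 0.0279), and Dnmt3a (0.0964), Mbd1 (0.0700), Atrx (0.0530), Daxx (0.0854) and Shmt1 (0.105) did not.

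The 70th percentile filter left out Tet3, Cdca7 and Shmt1. Tet2, with both probe sets under the filter, was tested only without it (adjusted p = 0.990 over all probe sets).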
